A study of Homo sapiens with 6 samples.

Results

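Gene loci of the fibroblast matrix and cytoskeleton were placed on lamin B1 and LC3 chromatin domains: *COL1A1*, *COL1A2*, *COL3A1*, *FN1*, *VIM* and *POSTN*. These 6 members were given by name and by position in GRCh37/hg19. No measured value entered that rule, but earlier results of these data were known when the members were chosen. The cells were IMR90, an established line of human lung fibroblasts, kept untreated at 3% oxygen and fixed with 1% formaldehyde for 5 min. The series held 6 samples: 2 immunoprecipitated with an anti-lamin B1 antibody, 2 with an anti-LC3 antibody and 2 of input chromatin, all of the same untreated line. Each precipitated sample had its own list of broad domains, and the 4 lists held 2118 domains in all (613 and 593 in the lamin B1 replicates, 437 and 475 in the LC3 replicates). Only 11 of these 2118 domains held a member. The lists give positions without heights or read counts, so depth is unknown, expression of these genes was not measured and the cell identity could not be checked against markers. The labels do not say whether replicates came from separate cultures.

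Lamin B1 is a filament protein of the nuclear lamina, and the domains it marks are mostly late-replicating, gene-poor chromatin held at the nuclear edge. LC3 is an autophagy protein that is attached to lipid on forming autophagosomes, and part of it is found in the nucleus. Type I collagen is built from the chains encoded by *COL1A1* and *COL1A2*, and type III collagen from *COL3A1*. *FN1* encodes fibronectin, the glycoprotein that cells assemble into matrix fibres, and *POSTN* encodes periostin, a secreted protein that links matrix components. *VIM* encodes vimentin, the intermediate filament protein of mesenchymal cells. The members thus comprise 3 fibrillar collagen chains, 2 matrix glycoproteins and 1 cytoskeletal protein.

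RefSeq promoter sequences were matched for 3 of the 6 members, *FN1*, *VIM* and *POSTN*, and not for *COL1A1*, *COL1A2* and *COL3A1*. They are shown because they include loci outside domains in every list (*FN1* and *VIM*) and a locus inside in every list (*POSTN*). Each line gives the 250 bases before the gene's start, 5′ to 3′ on the gene's own strand, with CG dinucleotides in capitals. The build of these sequences is GRCh38.p14, and their positions are not on the coordinates of the domain lists.
FN1 (chr2:215436069-215436318, minus strand): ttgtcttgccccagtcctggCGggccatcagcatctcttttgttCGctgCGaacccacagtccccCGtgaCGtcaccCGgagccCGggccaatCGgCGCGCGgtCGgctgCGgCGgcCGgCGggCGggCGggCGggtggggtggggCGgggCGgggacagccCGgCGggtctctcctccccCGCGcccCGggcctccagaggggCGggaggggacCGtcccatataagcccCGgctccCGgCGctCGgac
VIM (chr10:17227991-17228240, plus strand): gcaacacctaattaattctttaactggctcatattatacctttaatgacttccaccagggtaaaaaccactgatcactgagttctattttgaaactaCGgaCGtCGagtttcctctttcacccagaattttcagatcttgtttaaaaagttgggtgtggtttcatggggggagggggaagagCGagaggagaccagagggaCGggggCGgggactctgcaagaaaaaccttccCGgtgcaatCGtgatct
POSTN (chr13:37598769-37599018, minus strand): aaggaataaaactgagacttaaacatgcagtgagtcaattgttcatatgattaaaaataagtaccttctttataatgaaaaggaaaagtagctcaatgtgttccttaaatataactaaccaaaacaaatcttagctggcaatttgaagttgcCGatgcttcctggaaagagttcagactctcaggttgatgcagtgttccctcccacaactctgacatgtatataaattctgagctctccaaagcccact

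These promoters differed in base composition. The *FN1* stretch had 76.4% G+C and 32 CG dinucleotides, the *VIM* stretch 46.0% and 8, and the *POSTN* stretch 36.4% and 1. Among the 27303 RefSeq promoters of that length, the medians were 57.6% G+C and 10 CG dinucleotides. *FN1* had more CG than 91.0% of them, *VIM* more than 45.8% and *POSTN* more than 6.66%. The letters TATAAA, searched on both strands, occurred at 2 places in the *POSTN* stretch and in neither of the others, against 11.4% of all promoters with a match. GGGCGG, also on both strands, occurred at 6 places for *FN1*, 1 for *VIM* and 0 for *POSTN*, against 41.3% of all promoters. CCAAT occurred once in *FN1* and in neither of the others, against 32.7%. The promoter with the fewest CG dinucleotides therefore belonged to the locus inside domains, but 3 sequences allow no more than this description.

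The 6 loci divided into 3 that no list covered and 3 that most lists covered. *COL1A1*, *FN1* and *VIM* were outside domains in all 4 lists. *COL1A2* and *POSTN* were inside domains in all 4. *COL3A1* was inside both LC3 domains and inside the lamin B1 domain of replicate 2, but outside in lamin B1 replicate 1. The 2 chains of type I collagen were thus on opposite sides, on different chromosomes. No locus was cut by a domain edge.

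Counted by list, 2 of the 6 loci were inside in lamin B1 replicate 1, where 49.3% of all 1 kb steps along the chromosomes were inside a domain. There were 3 of 6 in lamin B1 replicate 2 (48.7% of steps), 3 of 6 in LC3 replicate 1 (49.4%) and 3 of 6 in LC3 replicate 2 (52.3%). Outside every list were 50.0% of the loci and 38.7% of the steps. Inside all 4 lists were 33.3% of the loci and 36.6% of the steps. Exactly 3 lists covered 1 locus, *COL3A1*, and 8.24% of the steps, and the combination seen there, every list but lamin B1 replicate 1, held 2.04% of the steps. Each of these shares of loci differed from its share of steps by less than 1 locus (16.7%), so nothing particular to matrix genes can be read from them. The background counts sequence and not genes, because all genes were not placed on this build here. It runs from the first to the last domain of a chromosome and so can include centromeres, where reads cannot be placed. Their part in the share outside domains was not measured.

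**Figure D1:**
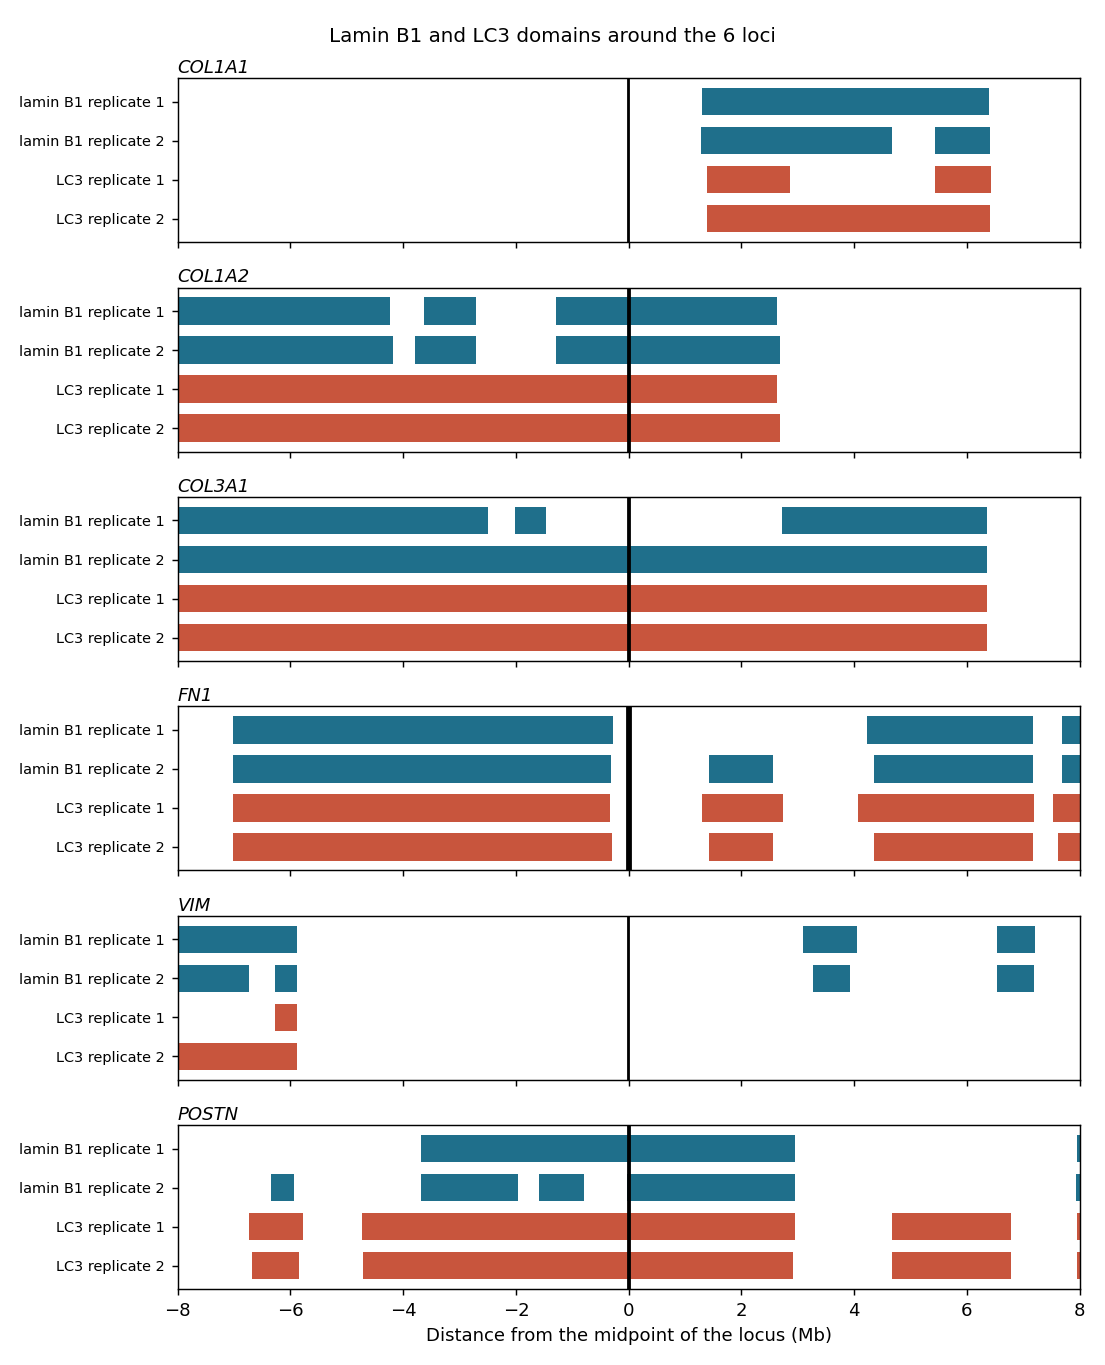
Domains of lamin B1 (blue) and LC3 (red) in each of the 4 lists, drawn to 8 Mb on each side of the midpoint of each locus; the x axis is distance in Mb and the black bar is the locus. COL1A2 and POSTN are covered in 4 of 4 lists, COL3A1 in 3 of 4, and COL1A1, FN1 and VIM in 0 of 4.

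*COL1A1* lay in a long stretch of chromosome 17 (48261001 to 48279000) without domains of either antibody. The gap ran from 33252001 to 49569000 in lamin B1 replicate 1, and it spanned 16.3 Mb in either lamin B1 replicate and 16.4 Mb in either LC3 replicate. It ranked 7th of 590 and 7th of 570 gaps for lamin B1, and 10th of 414 and 7th of 453 for LC3. Counted by sequence, which gives long gaps more weight, gaps at least as long held 10.3% of lamin B1 gap bases in both lists. For LC3 the shares were 18.9% and 14.7%. Chromosome 17 carried few domains, between 6.53% and 13.3% of its span per list. The locus sat near the right end of the gap, at 91.5% to 92.1% of its length.

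The nearest edge to *COL1A1* was the left end of a domain on its right in every list. It was 1290 and 1281 kb away for lamin B1 and 1386 and 1383 kb away for LC3. LC3 domains therefore began 99.0 kb farther from the gene on average, against SDs of 6.36 kb for lamin B1 and 2.12 kb for LC3 (n = 2 each), and the lists of the 2 antibodies did not overlap. The domain itself varied more than its edge: it was 5.09 and 3.38 Mb long for lamin B1, and 1.47 and 5.02 Mb for LC3. Between 36.7% and 49.2% of the steps outside domains lay as far from an edge as *COL1A1* or farther, depending on the list. By RefSeq the gene stands between *SGCA* and *TMEM92*.

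*COL1A2*, the gene of the other type I chain, was inside domains of both antibodies on chromosome 7 (94024001 to 94061000). The lamin B1 domain measured 3.92 Mb in replicate 1 (92757001 to 96681000) and 3.97 Mb in replicate 2. The LC3 domain measured 15.8 Mb in replicate 1, from 80835001 to 96680000, and 18.96 Mb in replicate 2, from 77763001 to 96723000. LC3 replicate 1 listed a further domain of 1.75 Mb to the left, from 77755001 to 79505000. Its start was 8 kb from that of the replicate 2 domain, so a gap in replicate 1 separated the lists there. The LC3 domains averaged 17.4 ± 2.20 Mb and the lamin B1 domains 3.95 ± 0.031 Mb (SD, n = 2 each), with no overlap between the antibodies. Both LC3 domains ranked 13th by length, of 437 and of 475. The lamin B1 domains ranked 103rd of 613 and 97th of 593. Counted by sequence, domains at least as long held 21.2% and 23.8% of LC3 domain bases and 56.3% and 55.6% of lamin B1 domain bases.

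The difference in length lay on the left of *COL1A2*. On the right, all 4 lists ended within 44 kb of each other, 2620 and 2663 kb from the gene for lamin B1 and 2619 and 2662 kb for LC3. On the left, lamin B1 domains began 1267 and 1268 kb from the gene, while LC3 domains reached 13.2 and 16.3 Mb. Within the LC3 domain of replicate 1, lamin B1 replicate 1 listed 4 domains covering 69.0% and lamin B1 replicate 2 listed 3 covering 79.6%. The LC3 domain thus ran across 2 or more gaps between lamin B1 domains. The nearest edge was on the left for lamin B1 (1.27 Mb in both lists) and on the right for LC3 (2.62 and 2.66 Mb). Between 30.35% and 40.26% of the domain steps lay as far from an edge or farther, depending on the list. By RefSeq the gene stands between *BET1* and *CASD1*.

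*COL3A1* was the locus on which the lamin B1 replicates differed. It lies on chromosome 2 (189839001 to 189877000) and is followed there by another collagen gene, *COL5A2*, by RefSeq order. In lamin B1 replicate 1 it was in a gap of 4.19 Mb from 188385001 to 192576000, with the nearest domain 1454 kb to the left and the next 2699 kb to the right. In lamin B1 replicate 2 it was in a domain of 16.8 Mb from 179408001 to 196208000, 6331 kb from the nearest edge. Of the domain steps of that list, 3.48% lay as far from an edge. Of the steps outside domains in replicate 1, 33.0% lay as far from an edge as the gene did there.

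Both LC3 lists held *COL3A1* in a domain of 20.1 Mb, from 176065001 to 196210000 in replicate 1 and 1 kb earlier at each end in replicate 2. These ranked 6th of 437 and 10th of 475 LC3 domains. Counted by sequence, domains at least as long held 12.3% and 19.9% of the LC3 domain bases. The gene was 6333 and 6332 kb from the nearest edge. Of the LC3 domain steps, 10.9% and 14.6% lay as far from an edge. Lamin B1 replicate 1 covered 76.6% of the LC3 domain with 3 domains, and lamin B1 replicate 2 covered 94.0% with 3. All lists marked the right end alike, with a lamin B1 edge within 2 kb of the end in LC3 replicate 1 in both replicates. The left end of the LC3 domain had a lamin B1 edge 35 kb away in both replicates. The outer limits were therefore shared, and the gap of lamin B1 replicate 1 was an interruption of which 100% lay in domains of each of the other 3 lists.

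*FN1* was the locus nearest to a domain among those outside. It lies on chromosome 2 (216225001 to 216301000), and a domain of 6.70 to 6.75 Mb ended on its left in every list. The end was 231 and 281 kb from the gene for lamin B1 and 290 and 258 kb for LC3, or 256 ± 35.4 and 274 ± 22.6 kb (SD, n = 2 each). The difference of 18.0 kb is smaller than either SD, and the lists of the antibodies overlapped. *FN1* is on the minus strand by RefSeq, so the end of the gene faced this domain, and its start was 307 to 366 kb away. Between 79.3% and 83.7% of the steps outside domains lay as far from an edge or farther, so *FN1* was closer than most such sequence.

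The gap that held *FN1* had a similar length in 3 lists, 1.74 Mb in lamin B1 replicate 2 and 1.64 and 1.72 Mb for LC3. In lamin B1 replicate 1 it was 4.50 Mb, since a domain of 1.14 Mb on the right in lamin B1 replicate 2 was not listed there. The median gap was 1.49 and 1.54 Mb in the lamin B1 lists, 1.56 and 1.41 Mb in the LC3 lists, and the gap around *FN1* was longer than 86.1% and 56.0% of lamin B1 gaps and 52.2% and 60.0% of LC3 gaps. Counted by sequence, which gives long gaps more weight, gaps at least as long held 46.0% and 80.6% of the bases between lamin B1 domains and 84.4% and 78.4% of those between LC3 domains. The part free of domains in all 4 lists ran from 215994001 to 217570000, 1.58 Mb. It ranked 198th of 545 such stretches. By RefSeq the gene stands between *ATIC* and *MREG*.

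*VIM* was the farthest from LC3 among the loci outside. On chromosome 10 (17270001 to 17280000) it was 3093 and 3256 kb from the nearest lamin B1 edge, on its right, and 5880 and 5879 kb from the nearest LC3 edge, on its left. Between 13.65% and 15.61% of the steps outside domains lay as far from an edge or farther, depending on the list. The mean distance to lamin B1 was 3.17 ± 0.115 Mb and that to LC3 was 5.88 ± 0.00071 Mb (SD, n = 2 each), without overlap of the lists. The left side was marked alike in all lists, within 6 kb. The difference came from the right side, where LC3 domains began only 26.8 and 26.9 Mb away. The LC3 domain on the left was 0.385 Mb long in replicate 1 and 2.82 Mb in replicate 2, and with domains of at least 500 kb only the distance in replicate 1 rose to 12.01 Mb.

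The LC3 gap around *VIM* was the longest of its list in both replicates, 32.7 Mb of 414 gaps and 32.8 Mb of 453. It crosses the centromere of the chromosome, where reads cannot be placed, so part of its length could hold no domain. Lamin B1 gaps around *VIM* were 8.98 and 9.14 Mb and ranked 20th in both lists. Counted by sequence, gaps at least as long held 20.6% and 20.8% of the bases between lamin B1 domains. For the LC3 gaps these shares were 2.59% and 2.91%. Inside the LC3 gap of replicate 1, lamin B1 replicate 1 had 5 domains that touched it and covered 9.31%, and replicate 2 had 4 that covered 7.08%. To the right of *VIM* the lamin B1 replicates shared 3 short domains that met no LC3 domain, of 0.948 and 0.668 Mb, 0.675 and 0.672 Mb, and 1.12 and 0.968 Mb. By RefSeq the gene stands between *TRDMT1* and *ST8SIA6*.

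*POSTN* was inside domains in all 4 lists, on chromosome 13 (38137001 to 38173000). In lamin B1 replicate 1 the domain ran from 34476001 to 41097000 (6.62 Mb), and in replicate 2 from 38132001 to 41100000 (2.97 Mb). LC3 domains were 7.68 and 7.62 Mb long. On the right the 4 lists ended within 27 kb, 2900 to 2927 kb from the gene. On the left the distances were 3661 and 5 kb for lamin B1 and 4717 and 4687 kb for LC3.

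The lamin B1 edge in replicate 2 thus lay just beside *POSTN*, about 1 bin of that list (4 kb) from its end. *POSTN* is on the minus strand by RefSeq, so the edge was 5 kb past the end of the gene and 41 kb from its start. Of the domain steps in that list, 99.6% lay as far from an edge or farther. The other lists placed the gene 2924, 2927 and 2900 kb from an edge, so the mean of 1464 kb for lamin B1 has an SD of 2064 kb (n = 2). In those lists 16.9%, 27.9% and 32.3% of the domain steps lay as far from an edge. Lamin B1 replicate 2 covered 82.7% of the replicate 1 domain, in 3 pieces. By RefSeq the gene stands between *CSNK1A1L* and *TRPC4*, and whether these neighbours share the domain was not analysed here.

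**Figure D2:**
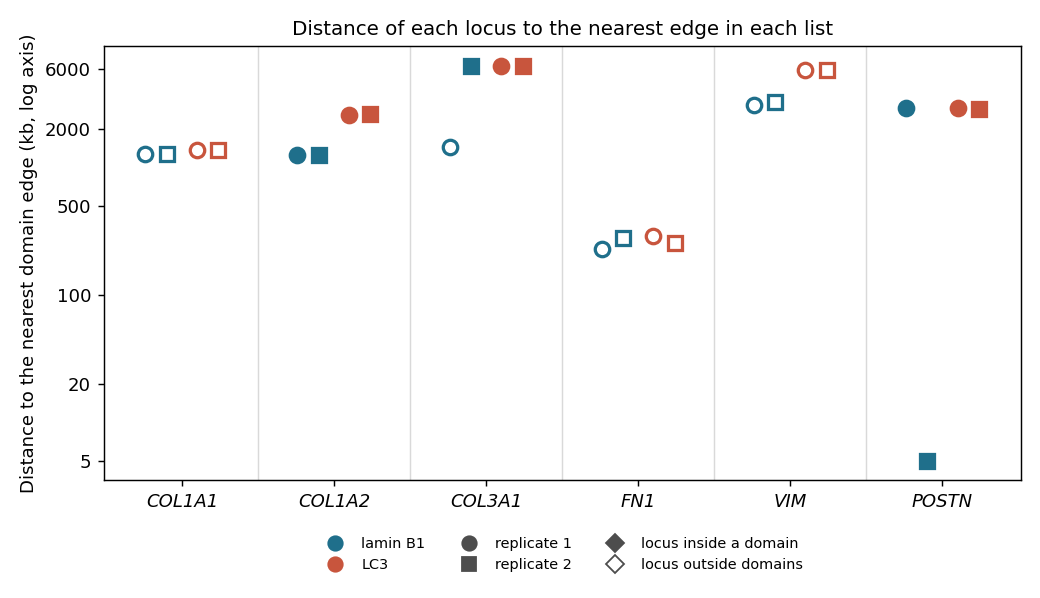
Distance from each locus to the nearest domain edge in kb (log axis), one point per list; blue is lamin B1, red LC3, circles replicate 1, squares replicate 2, filled points inside a domain and open points outside. Distances run from 5 kb (POSTN, lamin B1 replicate 2) to 6333 kb (COL3A1, LC3 replicate 1), and FN1 is between 231 and 290 kb in all lists.

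**Figure D3:**
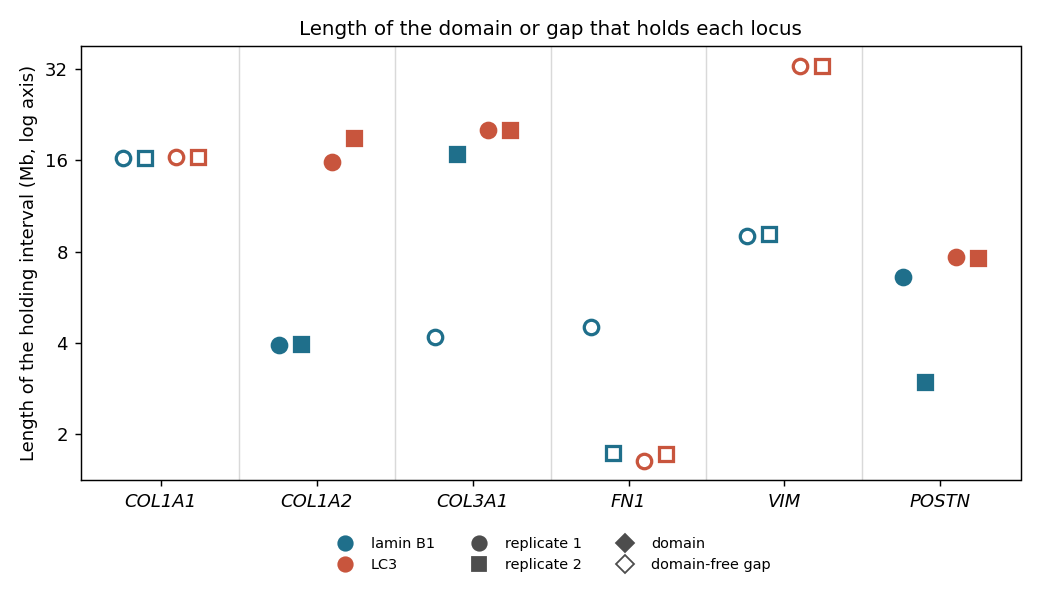
Length in Mb (log axis) of the domain (filled) or domain-free gap (open) that holds each locus in each list, with colours and shapes for antibody and replicate. COL1A1 has 4 gaps of 16.3 to 16.4 Mb. Among loci placed alike in all lists, the intervals of COL1A1 (slightly), COL1A2, VIM and POSTN are longer for LC3 than for lamin B1 in every list. Those of FN1 are not.

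Ordered by distance outside domains, *FN1* came first, *COL1A1* next and *VIM* last for both antibodies. The lists of neighbours in this order did not overlap. Ordered by depth inside LC3 domains, *COL3A1* was deepest with 6.33 Mb, and *POSTN* (2.91 ± 0.019 Mb) and *COL1A2* (2.64 ± 0.030 Mb; SD, n = 2 each) followed without overlap. For lamin B1 no such order holds inside domains, since *COL3A1* and *POSTN* each depended on the replicate. Exact two-sided permutation of the 2 lamin B1 and 2 LC3 lists, on distances counted positive inside and negative outside, gave p = 0.333 for *COL1A1*, *COL1A2*, *COL3A1* and *VIM* and p = 0.667 for *FN1* and *POSTN*. Adjusted over the 6 loci these were 0.5 and 0.667. The smallest p that 2 lists against 2 allow is 0.333, so the test could call no difference. For *COL3A1* the separation rested on 6331 kb in lamin B1 replicate 2 against 6332 kb in LC3 replicate 2, closer than a bin. With domains widened by 1 bin the same permutation gave p = 0.667 there.

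The ends of the intervals that held the loci were either close together in the 4 lists or megabases apart. Only ends of the holding interval were compared, so a list with a distant end can still have another edge nearby. Of the 12 sides of the 6 loci, 6 had their 4 holding edges within 6 to 105 kb of each other, and the other 6 spread over 2.92 to 23.8 Mb. The 200 kb that separates these classes was chosen after the values were seen. *COL1A1* had both sides in the first class. *COL1A2* and *POSTN* had their right side there, *FN1* and *VIM* their left side, and *COL3A1* neither. Holding ends of the LC3 replicates differed by megabases on 1 side, left of *COL1A2* (3072 kb). There LC3 replicate 1 had another edge 8 kb from the replicate 2 end. Holding ends of the lamin B1 replicates did so on 4 sides, both of *COL3A1*, the right of *FN1* and the left of *POSTN*. Right of *FN1* and left of *POSTN*, replicate 2 had another edge 125 and 4 kb from the replicate 1 end. Right of *COL3A1*, replicate 1 had another edge 4 kb from the replicate 2 end. In each of these pairs the opposite end had no edge so near.

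The shares of the sequence around the loci follow from the edges given above and are no separate observation. With 1 Mb on each side, domains took up 0% around *COL1A1* and *VIM* in each list and 100% around *COL1A2* in each. Around *FN1* the share was 37.0% and 34.6% in the lamin B1 lists and 34.2% and 35.7% in the LC3 lists, all of it on the left flank. Around *COL3A1* it was 0% in lamin B1 replicate 1 and 100% in the other lists, and around *POSTN* it was 62.3% in lamin B1 replicate 2 and 100% in the other lists. *VIM* had 0% even with 2 Mb on each side, where *COL1A1* reached 17.7% and 17.9% in the lamin B1 lists and 15.3% and 15.4% in the LC3 lists.

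**Figure D4:**
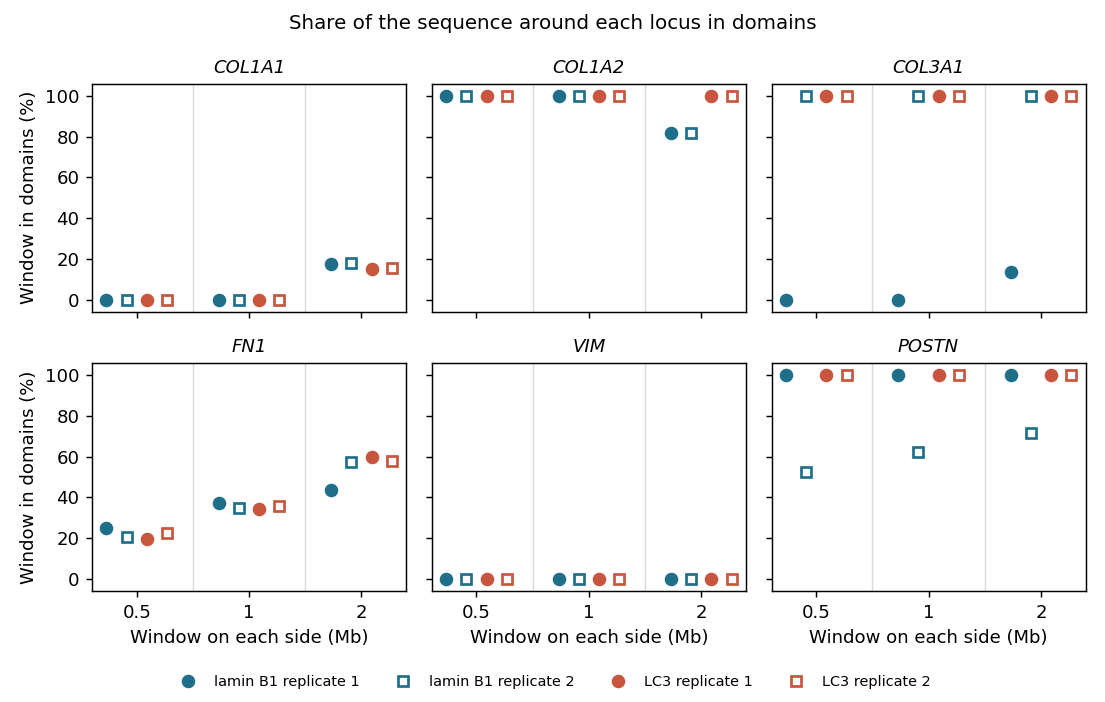
Percent of the sequence around each locus that lies in domains (y axis), for windows of 0.5, 1 and 2 Mb on each side (x axis), one point per list. VIM stays at 0% in all windows, COL1A2 is at 100% up to 1 Mb, and FN1 rises with the window in every list.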

How the data were processed

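ChIP-seq was done on IMR90 cells with antibodies against lamin B1 and LC3, 2 replicates each, beside 2 input samples, which were not used here. The submitters' processing notes list bcl2fastq (2.16.0.10), bedtools and Bowtie2, and the build GRCh37/hg19. The names of the deposited lists refer to EDD, which finds broad domains; neither its version nor its settings were given in the sources used here. A list holds the chromosome, start and end of the domains of 1 replicate. Edges are multiples of 3, 4, 5 and 3 kb in lamin B1 replicates 1 and 2 and LC3 replicates 1 and 2, so a distance is no finer than 1 bin. Positions are 1-based.

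Loci were placed with Python 3.11.15 and NumPy 2.4.6. Locus positions are rounded to 1 kb. Distances run from the locus end to the nearest domain edge. A gap is the stretch between neighbouring domains of a list. Background steps cover each chromosome from the first to the last domain of any list. RefSeq (GRCh38.p14) supplied gene order, strand and promoters, and no positions were moved between builds. The placement was checked on simulated data, where 1000 of 1000 loci were placed as made. A wider list of matrix genes was not placed here, since no annotation of this build was used. Alternatives were merging, minimum domain length, consensus domains, other definitions of locus and window, and leaving out lists. All 6 members are named. Members and lists were chosen with earlier results of these data known.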

Additional observations from a re-analysis of the deposited data

How the results depend on the processing

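Of 144 placements under 6 other settings, 143 did not change. *POSTN* in lamin B1 replicate 2 was cut by an edge when the locus was extended by 100 kb. In every other list and locus the gene lay 231 kb or more from an edge, in a domain or gap longer than 500 kb. None of the 6 settings could change those placements, so the count is no separate check. The number of loci inside was 2.50 for lamin B1 and 3 for LC3 on average. Its 16 alternatives gave 2 to 3 for lamin B1 and 3 for LC3, all within 1.5 times. That limit is wide enough to pass both the 2 and the 3 loci of the single lamin B1 lists. Leaving out a list only returned the count of the other list. Of 72 differences between antibodies in distance, 4 changed direction or fell to 0. For *COL3A1*, domains in either replicate gave -0.0020 Mb, against 3.89 Mb; leaving out 1 list gave 0.0015 Mb (without lamin B1 replicate 1) to 7.79 Mb (without lamin B1 replicate 2), and domains in both replicates gave 7.79 Mb. For *FN1*, leaving out 1 list gave -0.043 to 0.0070 Mb, the latter without lamin B1 replicate 1. For *POSTN*, domains in either replicate gave a difference of 0 Mb, and leaving out 1 list gave -0.011 Mb (without lamin B1 replicate 2) to 2.91 Mb (without lamin B1 replicate 1). For *COL3A1* and *POSTN* these shifts follow from the 1 lamin B1 replicate that differs there; for *FN1* the lists interleave and the cause was not tested. The replicate block, same-numbered lists taken as pairs, leaves the mean difference unchanged by arithmetic, 3.89 Mb for *COL3A1*. It counts as 1 alternative per locus among the 72 and could not change direction. No p with it could pass a threshold. Without domains under 500 kb, the LC3 replicate 1 edge nearest to *VIM* was 12.01 Mb away instead of 5.88 Mb, as its nearest domain is 0.385 Mb long. Of the values of a single list, 31 of 120 distances and 2 of 72 interval lengths moved by more than the SD of the replicates. No distance of a single list changed side, and given the distances above none could under these settings. Of the means of 2 lists, 8 of 44 interval lengths and 7 of 96 window shares moved by more than that SD. Leaving out 1 of 2 lists always shifts a mean by less than the SD, so those alternatives could not count as moved. All 8 mean lengths that moved did so with consensus domains. Read depth is unknown, and whether a missing domain goes with few reads was not tested.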

Other observations

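At the right end of the domain that holds *COL1A2*, lists with the same replicate number ended closer together than lists of the same antibody. Lamin B1 and LC3 differed by 1 kb in replicate 1 and by 1 kb in replicate 2, while the 2 replicates differed by 43 kb for each antibody. To the right of *COL1A1* the order was the other way round: replicates differed by 9 kb for lamin B1 and 3 kb for LC3, while same-numbered lists differed by 96 and 102 kb. Both edges were picked after their values were seen.

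The stretch free of domains in all 4 lists around *COL1A1* was 16.3 Mb long and ranked 7th of 545 such stretches, and that around *VIM* was 8.98 Mb long and ranked 17th. The stretch around *FN1*, 1.58 Mb, was longer than 63.7% of them. These ranks and this share count stretches and not bases, so long stretches get no more weight than short ones.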
